A study of Mus musculus with 4 samples.

Results

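The mitochondrial ribosomal protein genes are the nuclear genes that encode the proteins of the mitochondrial ribosome. They were taken as all gene symbols that start with Mrpl (large subunit) or Mrps (small subunit) followed by a number and at most 1 letter, and that had a mean of at least 1 FPKM (fragments counted for each kilobase of transcript, relative to all fragments of the library) over the libraries. This gave 76 genes, 47 of the large and 29 of the small subunit, among 11824 genes tested. All 76 such symbols listed in the deposited data passed the minimum. The 75 of them found in the GENCODE M21 annotation (build mm10) lie on 17 chromosomes. Subunit was taken from the symbol. By their known place Mrps18a and Mrps30 sit in the large subunit, and Mrps36 is now assigned to the 2-oxoglutarate dehydrogenase complex.

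The 4 RNA libraries came from C2C12 cells, an established line of mouse skeletal myoblasts that fuse into myotubes when serum is withdrawn. All cells were transfected with 30 nM siRNA and then held in differentiation medium (DM, with horse serum) for 48 h. In 2 libraries the siRNA was scrambled, and in the other 2 (siMEF2A) it was directed at Mef2a, a transcription factor of the MEF2 family that acts in muscle differentiation. The labels do not say whether the 2 libraries of a group came from separate cultures, so the p-values rest on the spread between the libraries alone, and that spread may be technical.

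Mitochondria keep a ribosome of their own, which translates the few messages of the mitochondrial genome, all of them for subunits of the respiratory chain and ATP synthase in mammals. Its RNA comes from the mitochondrial genome, whereas each of its proteins is made in the cytosol from a nuclear gene and imported, so the mitochondrial ribosome depends on many separate nuclear genes. Promoters of nuclear genes for mitochondrial proteins often carry sites for NRF1, for ETS factors such as GABP, and for YY1, and skeletal muscle is rich in mitochondria.

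The promoter stretches that follow are shown because they hold matches to those motifs or to the MEF2 motif, and they were chosen after the matches were seen. They come from RefSeq's promoter table on GRCm38.p6, which covers 250 bases before and 50 bases from each start. The table had 73 promoters for 67 of the 76 genes. Capitals mark the matched letters, each sequence is written 5′ to 3′ on the strand of its gene, and positions count from the start site as base 0. The MEF2 motif was matched by 2 of the 73 promoters (2.74%), against 1.60% of the 10484 promoters of tested genes and 3.19% of all 32851 promoters. The matches lay in Mrpl1, at chr5:96209865-96209964 (+), and in 1 of the starts of Mrpl48, at chr7:100591465-100591564 (-).
Mrpl1: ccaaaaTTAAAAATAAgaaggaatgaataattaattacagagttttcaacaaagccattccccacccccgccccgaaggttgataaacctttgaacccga
Mrpl48: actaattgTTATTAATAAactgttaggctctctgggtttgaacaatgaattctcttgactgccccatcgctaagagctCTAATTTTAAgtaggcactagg
The stretch of Mrpl1 lies between bases -250 and -151, within the gene as annotated in M21 (chr5:96209493-96266727) but outside its exons, and that of Mrpl48 between -150 and -51, where 2 separate matches are seen. Mrpl1 was also the gene with the lowest siMEF2A to scrambled ratio of the 76 (values below). It did not pass the test for a difference, and its groups overlapped. Its 2 replicate differences in log2(FPKM + 1), -0.43 and -0.44, were of larger size than its group difference of -0.33. Whether MEF2A binds these letters was not tested.

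The NRF1 motif, whose 10 letters are the capitals of the next 3 sequences, was found in 3 of the 73 promoters (4.11%), against 2.27% for tested genes and 0.971% for all promoters. All 3 were large subunit genes, Mrpl9, Mrpl32 and Mrpl39. The stretch of Mrpl9 was chr3:94443218-94443317 (+), that of Mrpl32 chr13:14613105-14613134 (-) and that of Mrpl39 chr16:84735350-84735379 (-). In GENCODE M21 both of the latter lie inside annotated exons, so only 30 bases are shown for each.
Mrpl9: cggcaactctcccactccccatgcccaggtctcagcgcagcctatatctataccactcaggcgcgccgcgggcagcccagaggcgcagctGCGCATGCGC
Mrpl32: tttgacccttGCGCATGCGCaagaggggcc
Mrpl39: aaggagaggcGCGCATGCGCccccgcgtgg
The motif reads the same on both strands, and every one of the 3 matches lay before the start.

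The ETS core CCGGAAG was the most frequent, in 24 of 73 promoters (32.9%), against 18.5% for tested genes and 8.86% for all promoters. It was present in 28.3% of the large and 40.7% of the small subunit promoters. Examples are Mrpl43, which holds 2 matches in the 100 bases before its start (chr19:45006443-45006542 (-)), and Mrps18a, which holds 1 (chr17:46110885-46110984 (+)).
Mrpl43: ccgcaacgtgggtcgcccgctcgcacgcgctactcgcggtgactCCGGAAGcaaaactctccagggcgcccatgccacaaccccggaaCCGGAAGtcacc
Mrps18a: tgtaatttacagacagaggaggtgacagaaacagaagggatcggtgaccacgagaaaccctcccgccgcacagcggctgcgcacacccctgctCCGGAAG
Of the 28 ETS matches, 17 started within the 100 bases before a start site.

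The YY1 core AAGATGGC was found in 12 of 73 promoters (16.4%), against 4.70% for tested genes and 2.75% for all promoters. Of the 12 matches, 8 lay after the start, between bases 11 and 43, and all 8 read AAGATGGC on the strand of the gene. The sites of Mrpl37 (chr4:107066822-107066851 (-)), Mrpl42 (chr10:95501904-95501933 (-)), Mrps7 (chr11:115604147-115604176 (+)) and Mrps24 (chr11:5707652-5707681 (-)) show this placement.
Mrpl37: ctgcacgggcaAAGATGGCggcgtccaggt
Mrpl42: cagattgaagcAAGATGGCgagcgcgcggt
Mrps7: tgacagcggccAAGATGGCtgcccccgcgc
Mrps24: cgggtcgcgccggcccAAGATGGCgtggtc
At least 1 of the NRF1, ETS and YY1 motifs was present in 35 of the 73 promoters (47.9%), against 23.8% for tested genes and 11.9% for all promoters. The TATA box TATAAA was present in 6.85% of the 73, 6.92% of tested and 13.6% of all promoters. Both strands were searched throughout, and in these genes no match overlapped one of another motif. Median GC content was 58.3% in the 73 promoters, 61.0% in those of tested genes and 52.7% in all. A match is a match of letters and not a measured site.

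**Figure D1:**
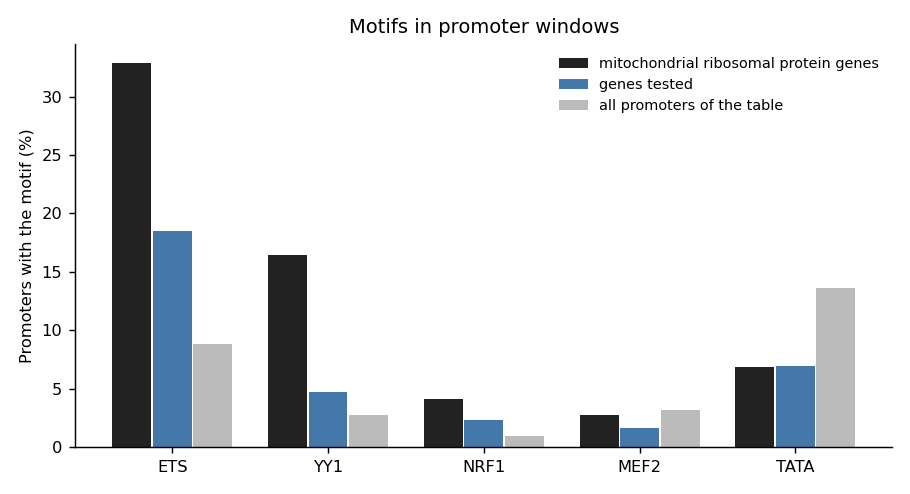
Share of promoters (%, linear axis from 0) that hold each motif, in 73 promoters of mitochondrial ribosomal protein genes (black), 10484 promoters of genes tested (blue) and all 32851 promoters of the RefSeq table (grey). The ETS and YY1 bars of the mitochondrial ribosomal protein genes, at 32.9% and 16.4%, stand above both other bars, while the TATA bars of these genes and of tested genes were 6.85% and 6.92%.

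The siRNA lowered its target. Mef2a stood at 25.8 and 32.2 FPKM with the scrambled siRNA and at 12.7 and 14.3 FPKM with siMEF2A, 46.5% of the scrambled mean, without overlap between the groups (log2 difference -1.05, SE 0.15, limma adjusted p = 2.72e-05, Benjamini-Hochberg over all genes). Over all genes, 209 passed an adjusted p of 0.05, 48 higher and 161 lower with siMEF2A. That split was 14 higher and 135 lower after median-ratio scaling between libraries, 14 and 132 after upper-quartile scaling, 11 and 107 after quantile normalization, and 13 and 118 after a correction for transcript length. Of the skeletal muscle markers listed in the data (6 of 7), 4 passed the test, all lower with siMEF2A (Myh3, Ckm, Tnnt1 and Myog). The summed level of the 6 was 632 and 688 FPKM with the scrambled siRNA and 368 and 415 FPKM with siMEF2A. Myf5 (satellite cells), Fabp4 and Pparg (adipocytes) and Cd68 (blood) were listed and not called. Pax7 (satellite cells), Adipoq (adipocytes), Ptprc (blood), Pecam1 and Cdh5 (endothelium) and Epcam, Krt8 and Krt18 (epithelium) were not listed. The part of the muscle marker difference in the values below was not tested. In bulk RNA, fewer cells of a type and less RNA per cell cannot be told apart.

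The mitochondrial ribosomal protein genes were well expressed in these cells. Their median level was 39.6 FPKM, at percentile 81.1 of all genes tested (median 11.7 FPKM). Levels ran over a 148-fold range, from 2.74 FPKM for Mrpl53 to 407 FPKM for Mrpl33. Of the 76 genes, 72 exceeded 10 FPKM (94.7%, against 54.6% of all genes), and 8 exceeded 100 FPKM. Medians of the subunits were close, 41.5 FPKM for the large and 39.4 FPKM for the small. In each of the 4 libraries the ratio of the median of the large subunit to that of the small was between 1.03 and 1.12.

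The most abundant messages came from both subunits. Mrpl33, a small protein with a bacterial counterpart, stood at 497 and 376 FPKM with the scrambled siRNA against 425 and 330 FPKM with siMEF2A, in the order of replicates 1 and 2. Mrpl52, found only in mitochondrial ribosomes, stood at 230 and 180 FPKM against 214 and 180 FPKM. Mrpl14, a core protein at the face between the subunits, stood at 216 and 165 FPKM against 182 and 132 FPKM. In each of these genes the groups overlapped, and scrambled replicate 1 was the highest library. In the small subunit Mrps6, the counterpart of bacterial S6, led with 323 and 296 FPKM against 353 and 284 FPKM. Mrps21 followed at 237 and 218 FPKM against 201 and 207 FPKM, with both siMEF2A libraries below both scrambled ones. Mrps16 stood at 103 and 84.7 FPKM against 109 and 91.7 FPKM, and here siMEF2A replicate 1 was the highest.

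At the other end, Mrpl53 stood at 3.22 and 2.71 FPKM against 3.10 and 1.94 FPKM, and Mrpl35 at 3.64 and 4.22 FPKM against 4.15 and 4.02 FPKM. The lowest of the small subunit were Mrps27, at 9.15 and 10.1 FPKM against 9.42 and 9.44 FPKM, and Mrps31, at 10.7 and 12.5 FPKM against 11.2 and 12.8 FPKM. All 4 had overlapping groups. The value of Mrpl53 rests on 1 listed transcript of 710 bases that GENCODE M21 classes as a retained intron, and the coding transcript was not analysed here.

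**Figure D2:**
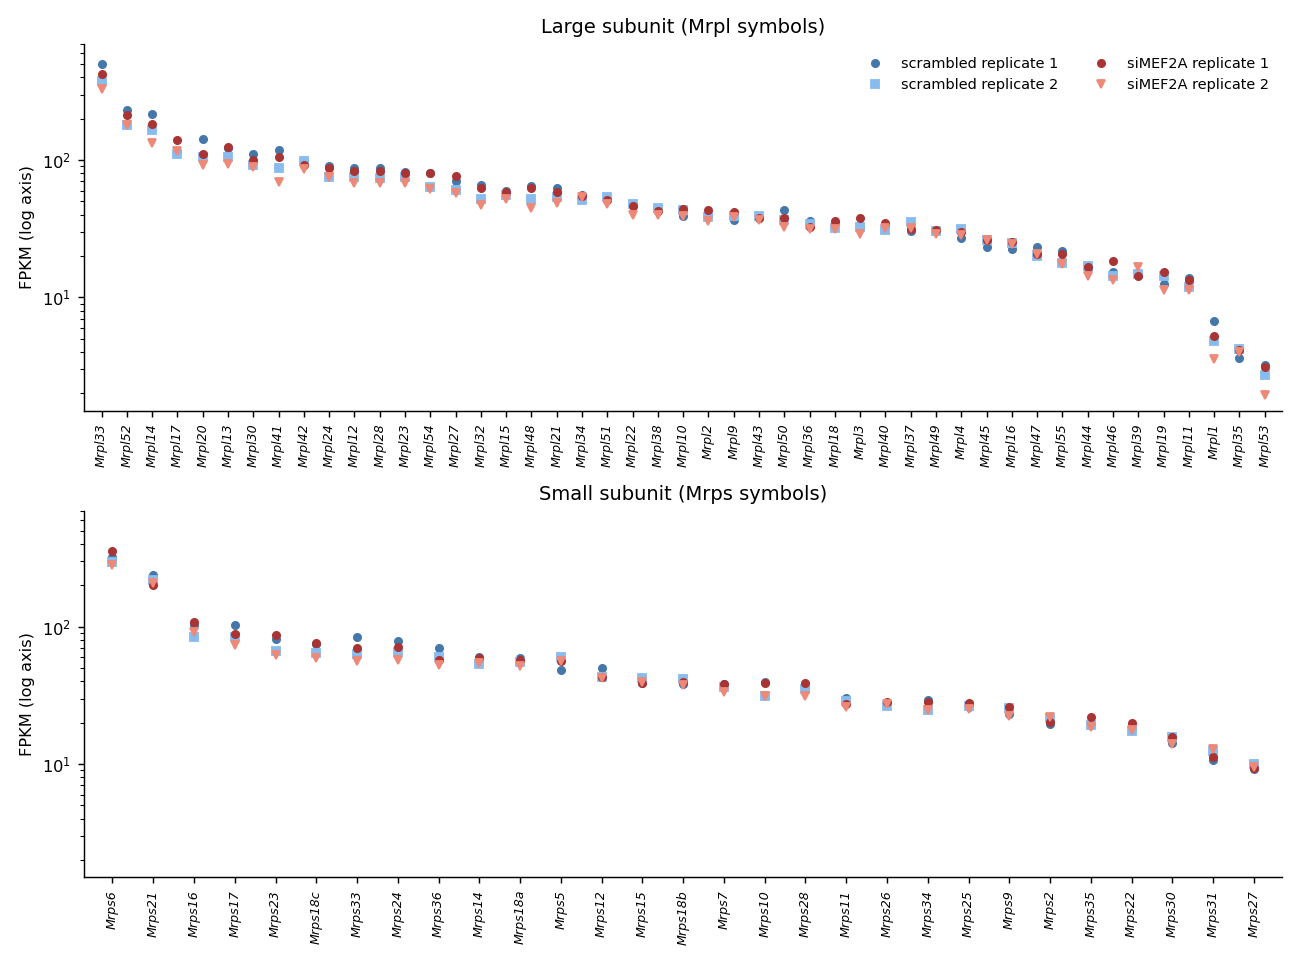
FPKM (log axis) of each gene in the 4 libraries, large subunit symbols above and small subunit symbols below, ordered by mean level, with scrambled replicates in blue and siMEF2A replicates in red. The 4 libraries of a gene lie close together beside the 148-fold range between Mrpl53 and Mrpl33, and the levels of the 2 subunits cover much the same range.

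No mitochondrial ribosomal protein gene passed the test for a difference between siMEF2A and scrambled. None of the 76 was called higher or lower by limma at an adjusted p of 0.05, where 1.77% of all genes were called (0.406% higher and 1.36% lower). None reached an unadjusted p under 0.05 either, against 6.39% of all genes (3.09% higher and 3.3% lower). With the replicate numbers of the titles added to the fit as a block, 6 of the 76 did, against 15.7% of all genes. In the reported fit the lowest p among the 76 was 0.0522 for Mrpl1 (limma adjusted p = 0.80). Means with siMEF2A lay between 75.9% and 114% of the scrambled means, with a median of 96.6%. The differences were within 0.1 of 0 on the log2(FPKM + 1) scale for 52 genes (68.4%, against 52.4% of all genes).

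The 95% intervals rest on the spread between libraries, which may be technical, so they need not bound a difference between separate cultures. That spread was moderated along an intensity trend (2 residual and 30.3 prior degrees of freedom). An SE therefore reflects mostly the spread of genes of like level and less that of the gene itself. The SE of a gene's log2 difference was 0.15 to 0.21. The 95% interval excluded a halving and a doubling on this scale for all 76 genes, and lay within 0.5 of 0 on either side for 63. It lay within 0.25 of 0 for none, so changes of that size were not detectable with 2 libraries a group.

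The lowest ratio was that of Mrpl1, the counterpart of the bacterial protein of the L1 stalk, which guides tRNA out of the ribosome. It stood at 6.78 and 4.78 FPKM against 5.20 and 3.57 FPKM. The groups overlapped, since siMEF2A replicate 1 lay above scrambled replicate 2. Its log2 difference was -0.33 (SE 0.17, 95% interval -0.67 to 0.00). Mrpl20, the counterpart of bacterial L20, stood at 143 and 106 FPKM against 111 and 91.9 FPKM, a log2 difference of -0.28 (SE 0.18). Mrpl41, a mitochondria-specific protein of the large subunit, stood at 118 and 87.1 FPKM against 105 and 68.7 FPKM, a difference of -0.25 (SE 0.19). In both genes scrambled replicate 1 was the highest and siMEF2A replicate 2 the lowest library, and the groups overlapped. Mrpl14, given above, had a difference of -0.28 (SE 0.19). Mrps36, the protein assigned to 2-oxoglutarate dehydrogenase, stood at 70.3 and 60.2 FPKM against 57.7 and 53.0 FPKM, without overlap, with a difference of -0.23 (SE 0.16).

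The highest ratio was that of Mrpl17 (chr7:105803206-105811099, minus strand), a large subunit protein with a bacterial counterpart. It stood at 114 and 110 FPKM against 139 and 116 FPKM, without overlap, with a log2 difference of 0.18 (SE 0.17, 95% interval -0.17 to 0.53). The next 4 genes had differences between 0.08 and 0.10. Mrps16, given above, had 0.10 (SE 0.17). Mrpl9, which holds an NRF1 match, stood at 36.4 and 38.9 FPKM against 41.5 and 38.3 FPKM, a difference of 0.08. Mrpl45, which lies at the tunnel exit and takes part in anchoring the ribosome to the inner membrane, stood at 23.3 and 26.2 FPKM against 25.96 and 26.3 FPKM. Mrps22, a mitochondria-specific protein of the small subunit, stood at 18.2 and 17.3 FPKM against 19.97 and 17.7 FPKM. Apart from Mrpl17, the groups of these genes overlapped.

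Across the functional regions of the large subunit the values lay close together in both groups. In the stalk that recruits translation factors, Mrpl10 stood at 39.2 and 43.6 FPKM against 44.1 and 39.0 FPKM, and Mrpl11 at 13.9 and 11.9 FPKM against 13.3 and 11.4 FPKM. Mrpl12, the stalk protein that has also been described to bind the mitochondrial RNA polymerase, stood at 87.95 and 75.1 FPKM against 82.9 and 67.9 FPKM. Median difference of these 3 genes was -0.06. The core proteins Mrpl2, Mrpl3 and Mrpl4 had ratios of 101%, 103% and 100% of the scrambled mean. For example, Mrpl4 stood at 27.2 and 31.2 FPKM against 30.2 and 28.3 FPKM. At the tunnel exit, Mrpl23 stood at 81.5 and 74.9 FPKM against 80.4 and 67.9 FPKM, and Mrpl24 at 90.5 and 75.3 FPKM against 87.4 and 75.1 FPKM. Mrpl44, a ribonuclease III-like protein whose loss impairs assembly of the large subunit, stood at 16.2 and 16.8 FPKM against 16.6 and 14.3 FPKM. None of these genes separated the groups.

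In the small subunit the groups also lay close together. Mrps12, which contributes to decoding, stood at 50.4 and 43.3 FPKM against 43.3 and 42.1 FPKM. Its groups did not overlap, although the nearest libraries both rounded to 43.3 FPKM, and the log2 difference was -0.13 (SE 0.16). Mrps5 stood at 48.3 and 59.9 FPKM against 56.1 and 56.6 FPKM, with the largest excess of scrambled replicate 2 over scrambled replicate 1 among the 76 genes (0.30 on the log2 scale). Mrps7 stood at 38.1 and 36.6 FPKM against 38.5 and 33.5 FPKM, and Mrps34 at 29.2 and 24.9 FPKM against 28.4 and 24.7 FPKM. The S18 family has 3 members in mammalian mitochondria. Mrps18a stood at 59.5 and 55.5 FPKM against 57.4 and 51.7 FPKM, Mrps18b at 38.6 and 41.9 FPKM against 39.5 and 37.8 FPKM, and Mrps18c at 75.5 and 64.6 FPKM against 75.6 and 59.0 FPKM. Their ratios were 94.8%, 95.9% and 96.1%, and in all 3 the groups overlapped. Mrps30 stood at 14.2 and 15.8 FPKM against 15.8 and 13.98 FPKM.

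Groups that do not overlap were counted over all 76 genes. Both siMEF2A libraries lay above both scrambled ones for 1 gene, Mrpl17 (1.32%, against 18.8% of all genes), and below both for 9 genes (11.8%, against 9.14% of all genes). The 9 genes, named after their values were seen, were Mrpl22, Mrpl36, Mrpl38, Mrpl42, Mrpl51, Mrps11, Mrps12, Mrps21 and Mrps36. On these values, without added scaling, the count of lower genes was near the background, and the count of higher genes was below it. Both backgrounds depend on the scaling, since 36.1% of all genes had a difference below 0 here and 51.2% after median-ratio scaling. For the 76 genes that number was 51 here and 64 after that scaling. The counts without overlap were not repeated after scaling. Mrps11, at 30.5 and 28.8 FPKM against 27.1 and 25.9 FPKM, and Mrpl42, at 97.8 and 99.1 FPKM against 91.8 and 85.9 FPKM, are examples.

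Differences between the 2 replicates of a group were larger than those between the groups for most of these genes. A difference of means of 2 libraries varies less than one of single libraries, so the share over all genes is the value to read against. For 66 of the 76 genes (86.8%, against 72% of all genes) the difference between group means was smaller than the mean difference between replicates. The median size of the group difference was 0.06 and that of the replicate difference 0.16, against 0.09 and 0.17 for all genes. Replicate numbers here are those of the titles. The names of the deposited data number the scrambled libraries differently, so statements that match replicates across the groups hold for the numbers of the titles alone. In 51 genes (67.1%, against 21.2% of all genes) replicate 2 was below replicate 1 in both groups, and in 8 genes (10.5%, against 49.5%) it was above in both. The lowest library was siMEF2A replicate 2 for 55 genes (72.4%, against 17.4% of all genes), and the highest was scrambled replicate 1 for 35 (46.1%, against 18.2%). Summed over the 76 genes the level was 4990 and 4381 FPKM for the scrambled and 4800 and 4062 FPKM for the siMEF2A replicates.

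The median differences show the same order of sizes. With siMEF2A minus scrambled, the median over the 76 genes was -0.05, where all genes had 0.04, and 51 of the 76 were below 0, against 36.1% of all genes. That count was 28 without siMEF2A replicate 2, where 45.5% of all genes were below 0, and 64 without siMEF2A replicate 1, where 33.1% were. It was 64 after median-ratio scaling, where 51.2% of all genes were below 0. Replicate 2 minus replicate 1 had a median of -0.10 within the scrambled group, where all genes had 0.09, and of -0.20 within the siMEF2A group, where all genes had 0.07. The single library pairs moved with the replicate chosen. Against scrambled replicate 1, the median was -0.02 for siMEF2A replicate 1 and -0.18 for siMEF2A replicate 2. Against scrambled replicate 2, it was 0.10 for siMEF2A replicate 1 and -0.11 for siMEF2A replicate 2. Left without siMEF2A replicate 2, the group median turned to 0.05, and without scrambled replicate 1 it was -0.01. These pairs share libraries with each other. Across the 76 genes, the 2 replicate differences had a Pearson correlation of 0.63 (Spearman 0.64), against 0.30 (Spearman 0.50) over 11650 genes with a known length, given as a description across genes that share their libraries. The sign of these correlations depends on the numbering of the replicates.

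**Figure D3:**
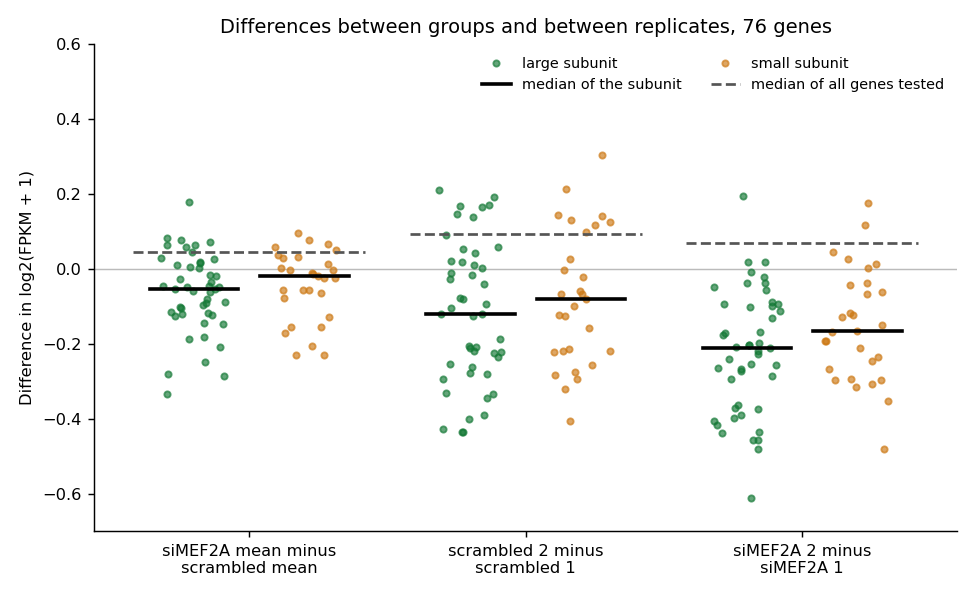
Difference in log2(FPKM + 1) of each gene between group means and between the 2 replicates of each group, with the large subunit in green, the small subunit in orange, subunit medians as solid lines and the median of all genes tested as dashed lines. The medians of both subunits lie below the dashed line in all 3 comparisons, and the points spread more widely between replicates than between groups.

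The subunits did not differ in these measures by more than the libraries did. The median group difference was -0.05 for the large and -0.02 for the small subunit, with SDs over genes of 0.11 and 0.09. Counting Mrps18a and Mrps30 with the large subunit and leaving Mrps36 out gave -0.05 and -0.02. The difference between the 2 medians was -0.03, and it turned to 0.03 without scrambled replicate 1. Replicate medians were -0.12 and -0.21 for the large subunit and -0.08 and -0.17 for the small. The ratio of summed FPKM, large over small, was 1.78 and 1.69 in the scrambled libraries and 1.73 and 1.63 in the siMEF2A libraries, so that the groups overlapped. Replicate 2 was lower in both groups for 68.1% of the large and 65.5% of the small subunit genes. The 46 genes classed as having a bacterial counterpart and the 30 classed as mitochondria-specific had medians of -0.05 and -0.04. The 30 include Mrps18a and Mrps18b, which belong to the S18 family, and Mrps36.

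The transcripts of these genes were short. The length of a gene is here the mean length of its listed transcripts, weighted by their FPKM, so it need not be that of any transcript. Its median was 1002.5 bases over the 76 genes, against 2388 bases for all genes. Of the 76, 38 were under 1000 bases, against 13.9% of all genes. Across all genes, longer transcripts had higher differences. The Spearman correlation of length with the difference, over 11650 genes, was 0.26 for siMEF2A minus scrambled, 0.43 for the scrambled replicates and 0.55 for the siMEF2A replicates. Over the 76 genes it was 0.47, 0.51 and 0.32. Length also went with level, at -0.64 over the 76 genes and -0.27 over all. All of these describe genes that share the same libraries.

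Bands of length compare the 76 genes with other genes of like length. From 600 to 800 bases, 19 of the 76 had a median group difference of -0.12, against -0.06 for the 426 other genes of that length. The scrambled and siMEF2A replicate medians there were -0.22 and -0.29, against -0.17 and -0.19. From 800 to 1000 bases, 16 genes had -0.05, -0.10 and -0.16, against -0.03, -0.10 and -0.14 for 573 others. From 1000 to 1500 bases, 17 genes had -0.03, -0.07 and -0.21, against 0.01, 0.00 and -0.06 for 1435 others. Longer bands held few of the 76. From 1500 to 2000 bases, 10 genes had -0.02, 0.06 and -0.05, against 0.04, 0.07 and 0.01. From 2000 to 3000 bases, 6 genes had 0.02, 0.08 and -0.16, against 0.06, 0.12 and 0.09, and at 3000 bases or more, 5 genes had 0.03, -0.01 and -0.20, against 0.07, 0.17 and 0.17. Under 600 bases, 3 genes had -0.15, -0.35 and -0.25, against -0.10, -0.24 and -0.21. The medians of the 76 genes lay below those of the other genes in every band, and for the siMEF2A replicates the gap was widest in the longest band. With the length trend of each library subtracted, the replicate medians of the 76 genes shrank to -0.04 and -0.10. Their group median was -0.05 before and after, while that of all genes went from 0.04 to 0.00, so the gap to all genes narrowed.

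**Figure D4:**
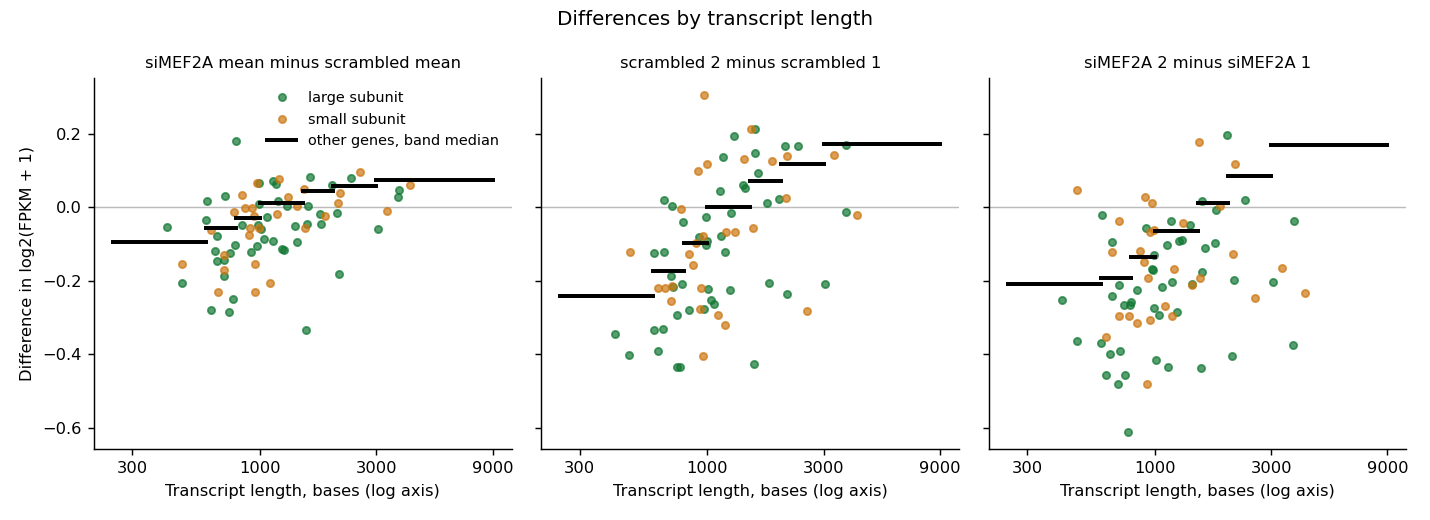
Difference in log2(FPKM + 1) against transcript length (bases, log axis) for siMEF2A minus scrambled and for the 2 replicate pairs, with the large subunit in green, the small subunit in orange and the median of other genes in each length band as bars. The bars rise with length in all 3 panels, and most of the points lie under 1500 bases, where the bars are low.

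Other groups of short, abundant messages gave values to set beside these. The 72 cytosolic ribosomal protein genes, which encode the ribosome outside mitochondria, had a median group difference of -0.05 and replicate medians of -0.36 and -0.32, and none was called. The nuclear subunits of oxidative phosphorylation, whose mitochondrially encoded partners the mitochondrial ribosome makes, had a median of -0.13 over 78 genes tested. Of these, 2 were called, both lower. They were the muscle forms Cox6a2, at 11.4 and 12.1 FPKM against 3.43 and 3.20 FPKM (log2 difference -1.56, SE 0.15, limma adjusted p = 6.43e-09), and Cox8b, at 22.2 and 22.8 FPKM against 9.01 and 8.73 FPKM (log2 difference -1.25, SE 0.15, adjusted p = 6.02e-07). The replicate medians of the list were -0.21 and -0.25.

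**Figure D5:**
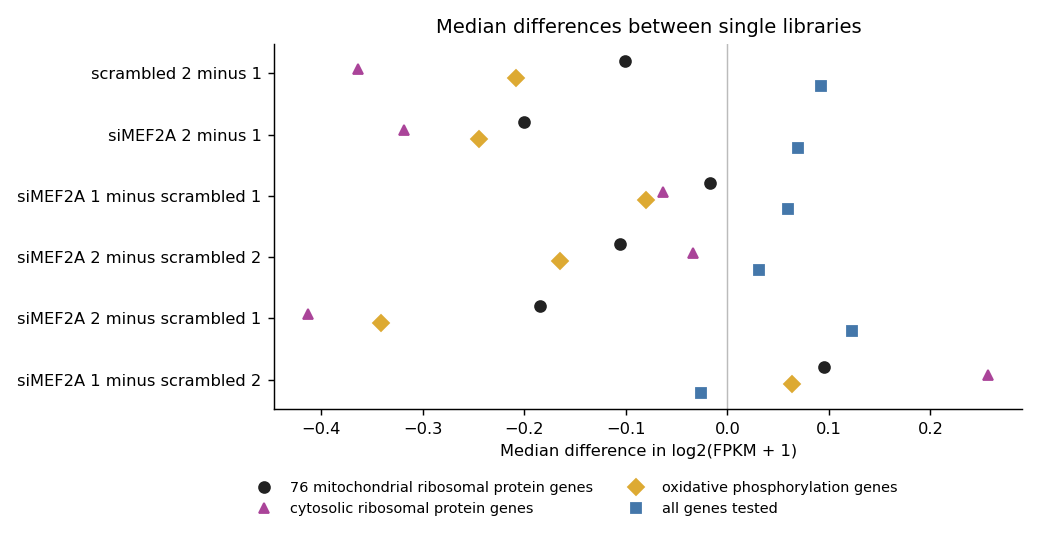
Median difference in log2(FPKM + 1) for each of the 6 pairs of single libraries, over the 76 mitochondrial ribosomal protein genes, 72 cytosolic ribosomal protein genes, 78 oxidative phosphorylation genes and all genes tested. The 3 lists lie below 0 in every pair except siMEF2A 1 minus scrambled 2, where they lie above it, and all genes lie on the opposite side of 0 in each pair.

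The other genes of mitochondrial translation were measured from lists of known factors. Of 7 ribosome subunits with other names (such as Dap3, Ptcd3 and Chchd1), 0 were called, and the median difference was -0.03. Chchd1, a small subunit protein, had the smallest p, at 181 and 134 FPKM against 144 and 106 FPKM (log2 difference -0.33, SE 0.19). Mrp63, now named as a large subunit protein, stood at 14.4 and 10.5 FPKM against 13.2 and 9.69 FPKM. In both, replicate 2 was the lower library in each group.

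Of 14 mitochondrial translation factors tested, 0 were called, with a median of 0.04. Gfm2, which takes part in recycling the ribosome after translation, stood at 8.62 and 9.30 FPKM against 9.38 and 9.47 FPKM (log2 difference 0.07, SE 0.15). Of 26 assembly and rRNA handling genes tested, 0 were called, with a median of 0.00. Mrm1, a methyltransferase of the mitochondrial large rRNA, was the only one of these with an unadjusted p under 0.05 (0.0307, limma adjusted p = 0.61). It stood at 6.97 and 8.41 FPKM against 16.03 and 7.22 FPKM, so that 1 siMEF2A library was high and the groups overlapped. Slirp, which stabilizes mitochondrial mRNAs together with Lrpprc, stood at 179 and 136 FPKM against 135 and 114 FPKM (log2 difference -0.33, SE 0.18).

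Of 13 genes of mitochondrial transcription and its regulators, 0 were called, with a median of 0.03. Gabpa, the DNA-binding part of the ETS factor GABP, stood at 11.8 and 15.7 FPKM against 14.6 and 16.3 FPKM. Ppargc1a, a coactivator of mitochondrial biogenesis, stood at 2.59 and 3.45 FPKM against 3.84 and 4.05 FPKM, without overlap (log2 difference 0.31, SE 0.15, adjusted p = 0.79). Ppargc1b stood at 1.42 and 1.55 FPKM against 0.90 and 1.24 FPKM, also without overlap and in the opposite direction (log2 difference -0.27, SE 0.15). Of 13 cell cycle genes, 0 were called, with a median of 0.07.

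The group differences were also described by promoter motif. The group difference was -0.06 for the 24 genes with an ETS match and -0.05 for the 43 without. It was -0.10 for the 12 genes with a YY1 match and -0.05 for the 55 without. The 2 genes with a MEF2 match, Mrpl1 and Mrpl48, had differences of -0.33 and -0.12, and neither passed the test. Mrpl48 stood at 64.2 and 52.2 FPKM against 62.2 and 45.1 FPKM, with overlapping groups. Their replicate medians, -0.36 and -0.45, were of larger size than their group median of -0.23. The 3 genes with an NRF1 match had a median of 0.06.

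The gene values combined 223 listed transcripts. For 24 genes 1 transcript was listed and for 52 several, up to 9. In all 52 the most abundant transcript was the same in the 4 libraries, and its share of the gene's FPKM moved between the groups by a median of 1.10 percentage points. The largest move was 7.36 percentage points, in Mrpl19, a gene named after its values were seen. Its leading transcript took 47.9% and 48.9% of the FPKM with the scrambled siRNA and 59.9% and 51.6% with siMEF2A. Transcripts that GENCODE M21 classes as protein-coding held 85.2% of the summed FPKM of the 76 genes. The most abundant transcript was of another class for 12 genes. Among them Mrps24, Mrps14 and Mrpl32 stood at 68.1, 56.6 and 56.9 FPKM, and for Mrpl32 the 1 listed transcript is classed as subject to nonsense-mediated decay. The annotation behind the deposited values, which may class these transcripts differently, is not stated.

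Some values can hold fragments of other genes. A near-identical copy (at least 95% identity over at least 50% of the transcript) was found at another locus for 8 of the 76 genes, and the copy was itself listed for 3, Mrpl23, Mrpl27 and Mrps5. The treatment of multiply mapped reads was not given, so the values of these genes are uncertain. The same holds for Mrpl21, Mrpl22, Mrpl42, Mrps10 and Mrps21, whose copies were not listed. Exon bases were shared with another listed gene by 26 genes, 24 of them on the opposite strand, and no use of strand was stated. Among these Mrpl53 shares 695 of its 790 exon bases with Gm42688, Mrps25 shares 4590 of 6576 with Nr2c2, and Mrps34 shares 1309 of 2064 with Mapk8ip3. Others share fewer bases with a far more abundant gene. Mrpl47 (21.1 FPKM) shares 616 of 4419 with Ndufb5 (233 FPKM). Mrpl18 (33.4 FPKM) shares 141 of 1398 with Tcp1 (209 FPKM), and Mrpl36 (33.5 FPKM) 30 of 1161 with Ndufs6 (147 FPKM). The values of all these genes are uncertain as well.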

How the data were processed

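RNA-seq libraries of C2C12 cells (2 scrambled, 2 siMEF2A) were deposited by the authors as FPKM for each Ensembl transcript, per the file headers. Tools named without version in the submitters' processing notes are Cufflinks, TopHat, Bowtie, Trimmomatic and CASAVA, and the build is mm10. Not given in the sources used here are the annotation, the scaling between libraries and how multiply mapped reads and strand were treated. Splitting of fragments among isoforms can move values between transcripts, so each gene is the sum of its listed transcripts. Small RNA genes (26 symbols) were removed by a pattern settled after the symbols were seen and chosen to match the number of genes tested in an earlier analysis of these data, whose count of called genes was close but not equal to the 209 here, for a reason not traced. With small RNA symbols kept, 163 genes were called. A 4-library mean of at least 1 FPKM was required, which 11824 of the 13824 listed symbols, less the small RNAs, met.

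Groups were compared as log2(FPKM + 1) by two-sided tests in limma 3.58.1 (R 4.3.3), with variances moderated along an intensity trend (2 residual and 30.3 prior degrees of freedom) and Benjamini-Hochberg adjustment over all genes. Differences in the text are on this log2 scale, which shrinks those of weakly expressed genes. No scaling was added. Replicate numbers are those of the titles, and the names of the deposited data give the scrambled libraries other numbers. The script was tested on simulated data. Lengths, classes and positions came from GENCODE M21 (97.3% of transcripts found), near copies from BLAST+ 2.17.0, and promoters from RefSeq on GRCm38.p6. Absolute depth is unknown, so no counting interval was computed. Relative depth, read from the commonest ratio among 600 low genes (shared by 11 to 17), was 1.05, 0.849 and 0.849 of scrambled replicate 1 for scrambled 2, siMEF2A 1 and siMEF2A 2. FPKM are scaled for depth, but low genes of the shallower libraries are less precise.

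Genes named were Mef2a, every called member, the 5 highest and 5 lowest differences, the 3 highest and 3 lowest levels of each subunit, members of set roles, and up to 4 genes of smallest p of each other list. Mrps11, Mrpl42, Mrpl48, Mrpl32, Mrpl19, Mrps14 and Mrps24 were named after their values or promoter matches were seen. Members and lists were chosen with earlier results of these data known. Alternatives covered the pseudocount, the minimum, scaling, transcript choice, length, the replicate block, the moderation and leaving out each library.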

Additional observations from a re-analysis of the deposited data

How the results depend on the processing

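Over 17 alternatives, 80 of 87 recomputed counts and medians stayed within 1.5 times the reported count or within the spread of the reported median between replicates, a bound that a change of sign can meet. The count of all genes called was 134 with a minimum of 5 FPKM, 118 after quantile normalization, 131 after length correction, 512 with a replicate block and 473 with a replicate block and length correction. It ranged from 178 to 226 when 1 library was left out. No mitochondrial ribosomal protein gene was called in any alternative except the replicate block with length correction, which called 1, Mrpl1 (log2 difference -0.36, limma adjusted p = 0.0361, against 0.0511 with the replicate block alone). Unadjusted p under 0.05 was reached by 0 of the 76 in the reported fit (6.39% of all genes) and by 6 with the replicate block (15.7% of all genes). It was reached by 7 with the block and length correction (13.8% of all genes) and by 1 with robust moderation (6.82% of all genes). The block uses the numbers of the titles, which differ from those in the names of the deposited scrambled data. The labels do not say that the replicate numbers pair the libraries. The replicate differences had a Pearson correlation of 0.30 (Spearman 0.50) over 11650 genes and of 0.63 (Spearman 0.64) over the 76. With 2 pairs this was not taken as pairing, so the reported fit holds no block, and the number of genes called depends on that choice.

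Leaving out 1 library moved the median of the 76 genes between -0.15 and 0.05, that of the large subunit between -0.16 and 0.05 and that of the small subunit between -0.12 and 0.0499. The positive ends came without siMEF2A replicate 2. Where 1 library was left in a group, it was assumed to vary like the other group. After median-ratio scaling the median of the 76 genes was -0.10. Of 35 members named by rule, 25 changed sign in at least 1 alternative, and none of these was called in it. With 2 libraries a group, the smallest difference among the 209 genes called was 0.53 on the log2 scale, and the part of sequencing depth in this limit is unknown.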
